A study of Homo sapiens with 3 samples.

Results

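The siPRMT6-2 library of HEC1B cells was set against the siNC and siPRMT6-1 libraries made in the same series. HEC1B is an established human endometrial cancer cell line. The siNC library has the genotype WT in the labels, which give PRMT6 knockdown for the siPRMT6-1 and siPRMT6-2 libraries. All 3 were total RNA at 48 h, and each is the only library of its siRNA, so no value below has a replicate and the siPRMT6-2 library stands for 1 sample. siNC and siPRMT6-1 had different treatments and are not replicates of a condition. Members of the comparison were the genes with at least 15 counts summed over the 3 libraries, which were 8227 of the 26485 genes in the deposited table. At that minimum, 229 genes had a sum of 15 and were kept, and 229 had a sum of 14 and were not.

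PRMT6 encodes an arginine methyltransferase that modifies histones and other proteins. Many of the genes that set siPRMT6-2 apart were interferon-stimulated genes. Interferons are secreted proteins that cells release after sensing foreign or misplaced nucleic acid. They bind receptors that activate JAK kinases and STAT transcription factors, which with IRF9 bind a short promoter element, the interferon-stimulated response element. The genes so induced include sensors of double-stranded RNA, proteins that block viral replication, a ubiquitin-like protein and its conjugation enzymes, and the machinery of antigen presentation, and epithelial cells of the endometrium can mount this response.

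Library totals ran from 362080 to 410916 counts and siPRMT6-2 had the lowest. The floor of 3 counts, used wherever a library had 0, was 7.32 CPM (counts scaled to depth with TMM) in siNC, 7.65 in siPRMT6-1 and 8.50 in siPRMT6-2. The 10 genes with the most counts took 12.7 to 12.8% of the other libraries and 15.8% of siPRMT6-2. Genes whose exons overlap those of an opposite-strand gene held 47.6% of the counts in siPRMT6-2 and 49.2 to 51.3% in the others, and the counts of such genes may stand for the other strand. If the strand setting of the counting was opposite to the kit, the counts of every gene, with or without a partner, would be of the wrong strand. Whether it was is not settled here, and the low counts of some genes that nearly all cells express, such as B2M with 5, 5 and 27, RPS12 with 7, 8 and 2 and RPL36 with 11, 14 and 4 in siNC, siPRMT6-1 and siPRMT6-2, are given beside it. All intervals are exact at 95% and cover counting error only. Each library had its own siRNA, so the spread between libraries mixes treatment with culture and technical differences. These cannot be told apart with 1 library of each siRNA.

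The targeted gene came first as a check of the labels. Values are given throughout in the order siNC, siPRMT6-1 and siPRMT6-2. PRMT6 (hg38 chromosome 1, 107056645 to 107059296, plus strand) had 25, 4 and 7 counts. The siPRMT6-2 value lay between those of the other libraries, at 0.325 times siNC (exact binomial interval 0.119 to 0.774) and 1.94 times siPRMT6-1 (0.494 to 9.06). PRMT6 therefore did not separate siPRMT6-2 from siPRMT6-1 at this depth. Of the 13 genes of the arginine methyltransferase list 8 were measured and 0 were called by edgeR, and their sums were 223, 223 and 203 counts.

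The labelled cell type was checked against its markers. KRT8 and KRT18, keratins of simple epithelia, had 1329, 681 and 770 counts and 129, 85 and 95 counts, and PAX8, a transcription factor of the female reproductive tract, had 158, 117 and 227. CDH1 and KRT19 had 0 counts in all 3 libraries and EPCAM had 5, 5 and 4. With the strand of the counts in doubt, a 0 here or below does not show that the transcript was absent. The 11 epithelial markers summed to 1640, 900 and 1116 counts. Of the 11 leukocyte markers 8 had 0 counts in every library, including PTPRC, CD3E and CD14, and the list summed to 24, 25 and 65. CD68, a lysosomal protein, supplied 17, 19 and 56 of those counts. The 7 fibroblast markers summed to 540, 366 and 375 counts, nearly all COL1A1, while COL1A2, COL3A1, DCN and LUM had 0 throughout. The 6 endothelial markers summed to 26, 27 and 15.

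siPRMT6-2 was farther from both other libraries than they were from each other, and more of its far genes were higher than lower. A gene was taken as apart when its log2 CPM difference (prior count of 2) was at least 2, a 4-fold difference, against siNC and against siPRMT6-1 in the same direction, with at least 30 counts in the highest library. By this rule 52 genes (0.632% of those measured) were higher in siPRMT6-2 and 3 (0.0365%) were lower. At a fold of 2 the counts were 122 (1.48%) higher and 46 (0.559%) lower. The 52 higher genes held 590, 656 and 6864 counts, which were 0.144% (exact binomial interval 0.132 to 0.156), 0.172% (0.159 to 0.186) and 1.90% (1.85 to 1.94) of each library. In 49 of the 52 the other libraries were within 2-fold of each other, and 13 of them had 0 counts in both. A gene with few counts elsewhere could enter only through siPRMT6-2 and then had to differ, and 23 of the 52 had under 10 counts over both other libraries. In bulk RNA, more cells carrying a transcript and more of it per cell cannot be told apart.

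Each pair of libraries gives the same picture in its spread. Against siNC, siPRMT6-2 had 58 genes at least 4-fold higher and 3 lower with at least 30 counts. Against siPRMT6-1 it had 67 higher and 9 lower. These comparisons share the siPRMT6-2 library. siPRMT6-1 against siNC gave 2 higher and 0 lower. Over the 1902 genes with at least 100 counts summed, the SD of the log2 difference was 0.663 for siPRMT6-2 against siNC, 0.716 against siPRMT6-1 and 0.415 for siPRMT6-1 against siNC. Within 2-fold of each other were 93.1%, 90.9% and 97.0% of those genes, in the same order, so most abundant genes of siPRMT6-2 were close to the other libraries.

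**Figure D1:**
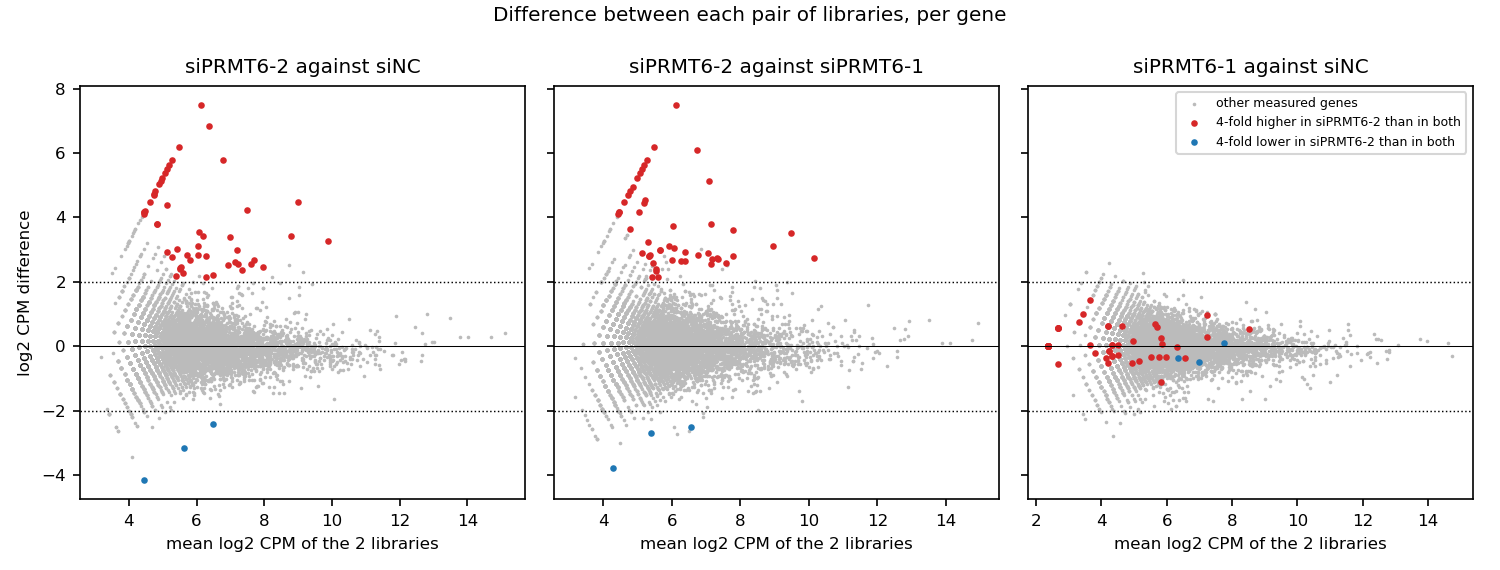
Each panel plots, for 8227 genes, the log2 CPM difference of a pair of libraries (vertical) against their mean log2 CPM (horizontal), both with a prior count of 2, and dotted lines mark a 4-fold difference. The 52 genes 4-fold higher (red) and 3 lower (blue) in siPRMT6-2 than in both others lie beyond the lines in the first 2 panels, as the rule requires, and within them in the panel of siPRMT6-1 against siNC.

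The edgeR quasi-likelihood test of siPRMT6-2 against the other libraries called 161 genes higher (1.96% of 8227) and 44 lower (0.535%) at a Benjamini-Hochberg adjusted p under 0.05, and 822 genes had an unadjusted p under 0.05. All 52 and all 3 apart genes were among the calls. In the other libraries, 146 of the 161 were within 2-fold of each other. The test has 1 residual degree of freedom, the gap between siNC and siPRMT6-1, and takes the lone library to vary like them, so it compares these libraries and not the siRNAs. The fit pooled this spread over all genes (infinite prior degrees of freedom), so a gene's own gap had no weight. A gene could thus be called where siPRMT6-1 lay far from siNC. DESeq2 called 48 higher and 3 lower, and without a minimum on low counts edgeR called 0, with 1389 at an unadjusted p under 0.05.

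Lists of interferon-stimulated and antigen presentation genes, grouped by role, held 34 of the 52 higher genes and 0 of the 3 lower. Of 210 listed genes 209 were in the table and 115 were measured. edgeR called 61 of the 115 higher and 0 lower, against 100 higher and 44 lower of the 8112 other genes. Among the 75 listed genes with at least 10 counts over the other libraries, which did not depend on siPRMT6-2 to be measured, 30 were called higher. Over all genes, 107 of the 7917 that met this minimum were called higher. The lists were written with earlier results of these libraries known, so the counts describe and do not test them.

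The oligoadenylate synthetases gave the greatest ratio of summed counts among the lists with counts in all 3 libraries. These enzymes bind double-stranded RNA and make a short oligoadenylate second messenger. OAS1 had 0, 0 and 31 counts, OAS2 had 0, 0 and 133, and OASL, a family member without synthetase activity, had 0, 0 and 31. OAS3 had 4, 7 and 286 counts, a ratio of 83.1 to siNC (exact binomial interval 32.1 to 307) and of 45.4 to siPRMT6-1 (21.7 to 114). The siPRMT6-2 library stood alone for all 4 genes. edgeR called 4 of 4 measured members, of which OAS3 was the only one with at least 10 counts over the other libraries. The list summed to 4, 7 and 481 counts, and OAS1, OAS3 and OAS2 lie beside each other on chromosome 12 between 112906934 and 113011723.

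The IFIT and IFITM genes were also higher. IFIT proteins bind viral RNA ends and IFITM proteins block viral entry at membranes. IFIT2 had 0, 0 and 46 counts, IFIT3 had 0, 1 and 47 and IFIT5 had 0, 1 and 32, and they are neighbours on chromosome 10 between 89301949 and 89421002. IFITM1 had 0, 0 and 89 counts, at least 34.5-fold higher than siNC and 33.0-fold higher than siPRMT6-1 against the floor of 3 counts per library. IFITM3, chosen after its values were seen, was the member with most counts elsewhere and had 103, 158 and 449. All 7 measured members were called higher by edgeR, among them 2 of 2 with at least 10 counts over the other libraries. This list also differed between the others, with a siPRMT6-1 sum of 1.62 times siNC (1.28 to 2.05), against 7.04 times (5.80 to 8.60) for siPRMT6-2.

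ISG15 conjugation gave 4 calls among 7 measured genes, all in members that had under 10 counts over the other libraries, were measured through siPRMT6-2 and so had to differ. ISG15 is the ubiquitin-like protein, UBA7 its activating enzyme, HERC5 its main ligase and USP18 the protease that removes it and also dampens interferon receptor signalling. ISG15 had 1, 3 and 308 counts, USP18 had 0, 1 and 58, and HERC5 and UBA7 each had 0, 0 and 16. These were the 4 that edgeR called. The 2 members with at least 10 counts over the other libraries, ARIH1 with 14, 8 and 12 and TRIM25 with 27, 22 and 51 counts, were not called. TRIM25 and ARIH1 were chosen after their values were seen.

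Small interferon-inducible genes held the gene farthest from both libraries. IFI6 (chromosome 1, 27666061 to 27672213, minus strand), a mitochondrial and endoplasmic reticulum protein, had 0, 0 and 330 counts, at least 128-fold higher than siNC and 122-fold higher than siPRMT6-1 against the floor. ISG20, an RNA exonuclease, had 0, 0 and 100, IFI27 had 0, 0 and 39, and IFI44L had 0, 0 and 21. Every one of these was undetected in both other libraries. LY6E, a membrane-anchored protein chosen after its values were seen, had more counts elsewhere, with 32, 13 and 185. edgeR called 7 of 7 measured members, 2 of 2 with at least 10 counts over the others, and the list summed to 39, 24 and 762.

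Among other antiviral effectors 9 of 18 measured were called higher and 0 lower. RSAD2, the radical-SAM enzyme viperin, had 0, 0 and 67 counts, and SAMD9L, a translation inhibitor, had 0, 0 and 30. HELZ2, a helicase, had 15, 23 and 273 counts, 21.1 times siNC (12.6 to 38.3) and 13.2 times siPRMT6-1 (8.61 to 21.2). SAMHD1, which hydrolyses deoxynucleotides, had 1, 4 and 36. Of the 10 members with at least 10 counts over the other libraries 4 were called. ADAR, the double-stranded RNA editing enzyme, was among them with 38, 47 and 118 counts, and LGALS3BP, a secreted glycoprotein, had 139, 128 and 467. APOBEC3B with 17, 13 and 9 counts and TMEM140 with 361, 315 and 195 were not called and were lowest in siPRMT6-2, so not every member was higher. SAMHD1 and the last 4 genes were chosen after their values were seen.

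**Figure D2:**
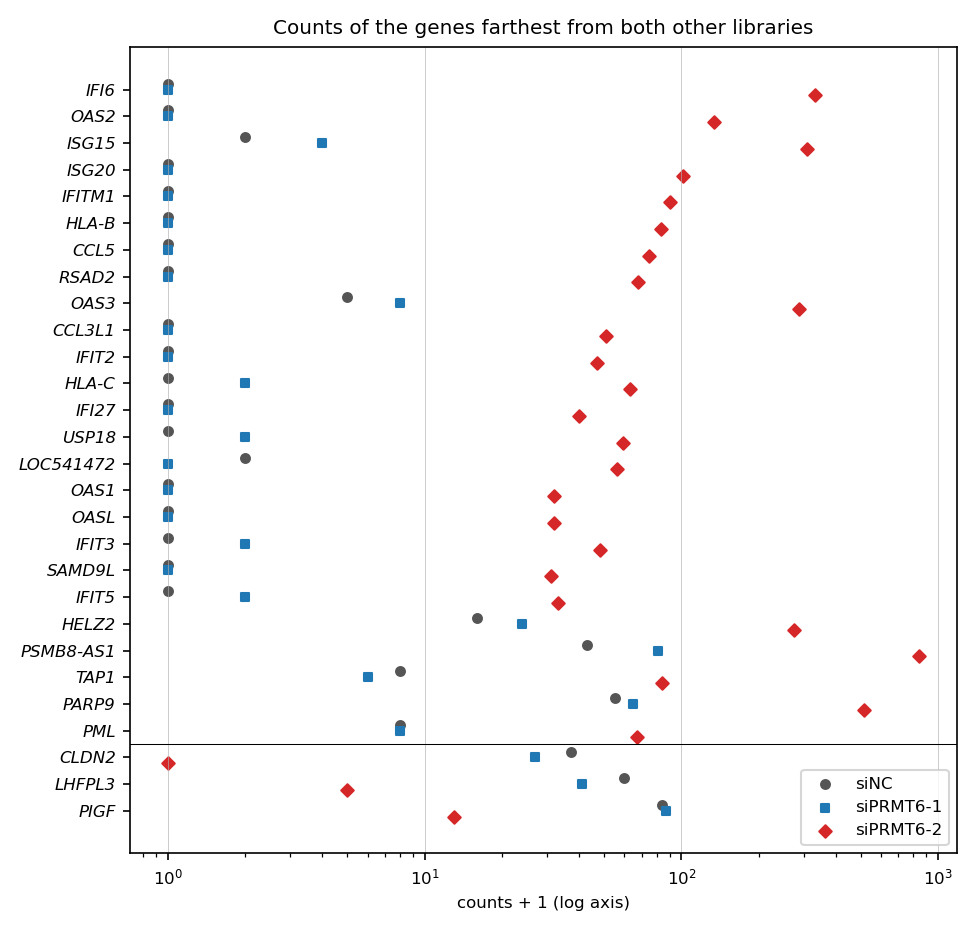
Counts plus 1 (log axis) in each library for the 25 genes farthest above both other libraries and, under the line, the 3 genes 4-fold below them. The siPRMT6-2 diamond is to the right of both other markers for all 25 and to the left for all 3, and IFI6 runs from 0 to 330 counts.

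The promoters of 6 of these genes are shown because letters of the interferon-stimulated response element recur in them. Its letters, taken as GAAA, any 2 bases and GAAA, were searched on both strands in RefSeq windows of 300 bases, from 250 before to 50 after each start (GRCh38.p14). They were in 3.57% of all 35116 windows. By gene, they were in any window of 263 of the 6490 measured genes that matched by symbol or synonym (4.05%), and in 15 of the 33 matched genes 4-fold higher in siPRMT6-2 (45.5%). Of those 15, 14 were among the 23 matched genes in the interferon and antigen presentation lists and 1 was among the 10 others. They were in 35 of 107 matched genes that edgeR called higher (32.7%) and in 0 of 33 called lower. TTCNNNGAA, the letters of the gamma-activated sequence bound by STAT dimers, was in 7.66% of windows and in 8 of the 33 higher genes (24.2%). A match describes letters in the window and is not a measured binding site. The stretches below lie outside exons, and positions count from the RefSeq start: IFI6 from -243 to -84 (chr1:27672276-27672435, minus strand), ISG15 from -250 to -91 (chr1:1013247-1013406, plus strand), RSAD2 from -250 to -113 (chr2:6877527-6877664, plus strand), OAS3 from -250 to -123 (chr12:112938224-112938351, plus strand), IFI27 from -245 to -86 (chr14:94110491-94110650, plus strand) and IFIT3 from -244 to -85 (chr10:89332285-89332444, plus strand). Capitals mark this pair of GAAA blocks with its gap, or the same read on the other strand as TTTC blocks. ISG15 holds 2 overlapping matches, and in IFI27 the TTCNNNGAA letters overlap both matches. For RSAD2 and IFIT3 the start used was number 2 of their RefSeq starts. All 6 starts used lie inside the deposited spans of their genes, that of RSAD2 in 6877665 to 6898232. The start of IFIT3 lies farthest inside, in a gene that spans 89327819 to 89340968. Start number 1 of IFIT3 had matches from -156 to -147 and from -122 to -113, not printed here.
IFI6: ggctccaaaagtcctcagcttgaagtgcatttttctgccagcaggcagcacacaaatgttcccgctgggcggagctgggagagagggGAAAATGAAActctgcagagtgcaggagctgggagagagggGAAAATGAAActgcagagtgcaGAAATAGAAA
ISG15: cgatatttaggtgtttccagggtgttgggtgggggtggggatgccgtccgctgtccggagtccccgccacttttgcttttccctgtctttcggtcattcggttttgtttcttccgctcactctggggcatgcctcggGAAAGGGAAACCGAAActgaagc
RSAD2: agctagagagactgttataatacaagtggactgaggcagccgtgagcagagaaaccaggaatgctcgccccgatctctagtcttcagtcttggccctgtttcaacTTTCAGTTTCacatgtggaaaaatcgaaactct
OAS3: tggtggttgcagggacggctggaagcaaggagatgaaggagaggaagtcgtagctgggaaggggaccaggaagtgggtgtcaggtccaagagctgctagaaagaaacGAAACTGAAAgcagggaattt
IFI27: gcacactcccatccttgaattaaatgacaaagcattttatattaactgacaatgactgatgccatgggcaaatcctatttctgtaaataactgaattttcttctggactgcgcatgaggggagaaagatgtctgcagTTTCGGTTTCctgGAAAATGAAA
IFIT3: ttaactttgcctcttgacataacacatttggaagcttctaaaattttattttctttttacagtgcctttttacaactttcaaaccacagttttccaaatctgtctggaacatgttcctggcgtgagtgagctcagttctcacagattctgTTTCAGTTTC

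ADP-ribosyltransferases and their partners had counts in all 3 libraries, so their ratios have bounded intervals. PARP9 and DTX3L, which overlap on chromosome 3 between 122527911 and 122575202, form a complex that joins ubiquitin ligase and ADP-ribosyl activity. PARP9 had 54, 64 and 514 counts, 11.1 times siNC (8.34 to 14.9) and 8.92 times siPRMT6-1 (6.87 to 11.8). DTX3L had 8, 6 and 61 counts. ZC3HAV1, the zinc-finger antiviral protein ZAP, which binds CpG-rich RNA, had 21, 21 and 120 counts, and PARP12 had 1, 6 and 36. All 6 measured members were called higher by edgeR, 5 of 5 with at least 10 counts over the other libraries, and their median log2 difference was 2.73 from siNC and 2.68 from siPRMT6-1, while the medians over all genes measured were both within 0.01 of 0.

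Sensors and signalling components were higher in part. IFIH1 (MDA5), a sensor of long double-stranded RNA, had 2, 2 and 24 counts and was called. DDX58 (RIG-I) had 7, 12 and 20 and MAVS, their shared adaptor, had 23, 18 and 26, and neither was called, so 2 of 8 measured sensing genes were higher with ZNFX1 (27, 20 and 128 counts) as the other. IFIH1 had under 10 counts over the other libraries and was measured through siPRMT6-2. Of the 6 sensing genes with at least 10 counts there, 1 was called. Of 15 measured signalling genes 2 were called, among them STAT2 with 6, 4 and 27 counts. Receptor and kinase genes were not called, with 6, 9 and 12 counts for IFNAR1, 6, 9 and 8 for IFNAR2, 19, 17 and 17 for JAK1 and 12, 15 and 17 for TYK2. IRF9, below the minimum for the test, had 1, 1 and 11 counts. MAVS, the receptors, the kinases and IRF9 were chosen after their values were seen.

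Interferon ligand genes were near the floor. Of 11 listed, 0 were measured and 9 had 0 counts in every library, IFNB1, IFNA1, IFNA2 and IFNG among them. IFNL1, a type III interferon, had 1, 0 and 7 counts and IFNL3 had 0, 0 and 2. The list summed to 1, 0 and 9 counts, a ratio of 10.5 to siNC with an interval of 1.45 to 458. No fold is given against siPRMT6-1 beyond the floor. Among interferon-inducible GTPases MX2 was called with 0, 0 and 24 counts, while MX1 had 0 in each library and GBP1 and GBP4 had 0, 0 and 6 and 0, 0 and 9. As the strand of the counts is in doubt, a 0 for these ligand and GTPase genes does not show that the transcript was absent. MX2 was measured through siPRMT6-2 and so had to differ. Of the 2 GTPase genes with at least 10 counts over the other libraries, 0 were called. Genes of this paragraph other than MX2 were chosen after their values were seen.

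PML and TRIM genes gave 4 calls among 11 measured. PML, the scaffold of nuclear bodies, had 7, 7 and 66 counts. SP110 had 0, 3 and 19, TRIM22 had 0, 0 and 15 and TRIM5, a capsid-binding restriction factor, had 4, 3 and 19. PML was the only call among the 6 members with at least 10 counts over the other libraries, where its ratio was 10.95 to siNC (5.03 to 28.3) and 10.5 to siPRMT6-1 (4.81 to 27.1). The other 5 measured members had under 10 counts over both and were measured through siPRMT6-2.

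Among genes of antigen presentation, edgeR called 11 of 19 measured members higher and 0 lower, and 8 of the 16 with at least 10 counts over the other libraries. HLA-B had 0, 0 and 82 counts, HLA-C had 0, 1 and 62 and the non-classical HLA-E had 15, 10 and 66. TAP1, a subunit of the peptide transporter, had 7, 5 and 83 counts. Each was several times above both other libraries. B2M, the light chain, had 5, 5 and 27, TAPBP, which loads peptide, had 110, 113 and 346, and NLRC5, the class I transactivator, had 0, 0 and 20. CALR, a general chaperone also in the list, had 172, 176 and 297 and was called, and CANX with 134, 101 and 118 was not. The list summed to 771, 702 and 1627 counts, 2.45 times siNC (2.25 to 2.67) and 2.57 times siPRMT6-1 (2.36 to 2.82). HLA class I genes are near-identical in places and their exons also lie on alternate sequences of the build, so the division of reads among them is uncertain. B2M, HLA-E, TAPBP, CALR and CANX were chosen after their values were seen.

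Cytokine genes had low counts, and 9 of 34 listed were measured. CCL5, a chemokine for T cells, had 0, 0 and 74 counts, CCL3 had 0, 0 and 28 and CSF1, a growth factor for macrophages, had 6, 5 and 48. These were the 3 calls among 9 measured, beside 1.96% of all genes measured that were called higher. CCL5 and CCL3 had 0 counts in both other libraries, were measured through siPRMT6-2 and so had to differ. Among the 5 members with at least 10 counts over the other libraries, 1 was called, beside 107 of all 7917 genes that met this minimum. CCL3L1, of the same chemokine family as CCL3 and outside the lists, had 0, 0 and 50 counts, and its copies can share reads. CXCL10, a chemokine typical of interferon responses, had 0 counts in each library, and CXCL9 did too, while CXCL11 had 0, 0 and 2. These 0 counts do not show absence of the transcripts, as the strand of the counts is in doubt. LIF had 26, 15 and 31 and CX3CL1 had 29, 32 and 36 counts, neither called. The last 5 genes were chosen after their values were seen.

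Among targets and regulators of NF-kappaB, a transcription factor of inflammation, 6 of 15 measured were called higher, and 4 of 11 among those with at least 10 counts over the other libraries. TRAF1 had 1, 2 and 23 counts and TNFAIP3, the feedback inhibitor A20, had 3, 1 and 16. NFKBIA, the inhibitor IkB-alpha, had 10, 2 and 27, and ICAM1, an adhesion receptor, had 17, 7 and 48. For the last pair siPRMT6-1 lay below siNC and siPRMT6-2 above it. RELA, a subunit of the factor, had 36, 33 and 30 counts and was not called. The list sum was 0.745 times siNC in siPRMT6-1 (0.605 to 0.916) and 2.24 times in siPRMT6-2 (1.90 to 2.64), and RELA was chosen after its values were seen.

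Metabolic genes linked to interferon gave 5 calls of 12 measured, 5 of 10 with at least 10 counts over the others. WARS, the tryptophanyl-tRNA synthetase, had 42, 31 and 206 counts, 5.70 times siNC (4.07 to 8.14) and 7.38 times siPRMT6-1 (5.04 to 11.1). It was the 1 call among the 20 measured tRNA synthetases, and HARS with 54, 41 and 73 counts was not. APOL1, a lipoprotein component with trypanolytic activity, had 7, 4 and 36, and RNF213, a large ubiquitin ligase, had 71, 105 and 362. IDO1, which degrades tryptophan and is typical of the gamma interferon response, had 0 counts in each library and was chosen after its value was seen. That 0 does not show that its transcript was absent, as the strand of the counts is in doubt.

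Of the 52 genes higher in siPRMT6-2, 18 were in none of the interferon or antigen presentation lists. KLF4 and ZFP36, a transcription factor and an RNA-decay protein of the immediate early list, had 13, 8 and 56 and 6, 5 and 36 counts. ACO1, the cytosolic aconitase that binds iron-responsive elements, had 10, 11 and 71. THEMIS2 had 6, 4 and 37, HIST1H4K had 7, 5 and 48, TFPI2, a protease inhibitor, had 6, 6 and 30 and ANXA13, an annexin, had 6, 6 and 35. Outside the 4-fold limit but also called, H1F0, a linker histone, had 40, 28 and 141. MIR3687-1 and MIR3687-2, identical in counts at 53, 30 and 165 each, cannot be separated from each other. The genes of this paragraph other than KLF4, ZFP36 and HIST1H4K were chosen after their values were seen.

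Of these 18 genes 8 share exon bases with an opposite-strand partner, and in 5 of the 8 pairs the partner was itself in the interferon lists. PSMB8-AS1 had 42, 80 and 844 counts and shares bases with TAP1 (7, 5 and 83) and PSMB8 (0, 0 and 7), both of antigen presentation. LOC100294362 had 122, 170 and 1031 counts opposite RNF213 (71, 105 and 362). ANGPTL6 had 4, 3 and 41 opposite C19orf66 (2, 0 and 5), and TLDC2 had 31, 29 and 165 opposite SAMHD1 (1, 4 and 36). TAP1, RNF213 and SAMHD1 were called higher by edgeR too, while C19orf66 and PSMB8 were below the minimum for the test. C7orf49 with 14, 23 and 145 lay opposite TMEM140 with 361, 315 and 195, where the strands went apart. TMEM132A had 19, 14 and 102 opposite SLC15A3, a histidine and peptide transporter outside the lists, with 72, 65 and 245. LOC541472 had 1, 0 and 55 counts opposite IL6, an inflammatory cytokine, with 0, 0 and 2. TBC1D17 had 19, 22 and 143 opposite AKT1S1 with 41, 35 and 26. Among all 52, 13 had such a partner (25%), beside 26.5% of the genes measured, and without opposite-strand genes 39 remained higher and 1 lower. The genes here other than PSMB8-AS1, TAP1, LOC541472 and RNF213 were chosen after their values were seen.

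**Figure D3:**
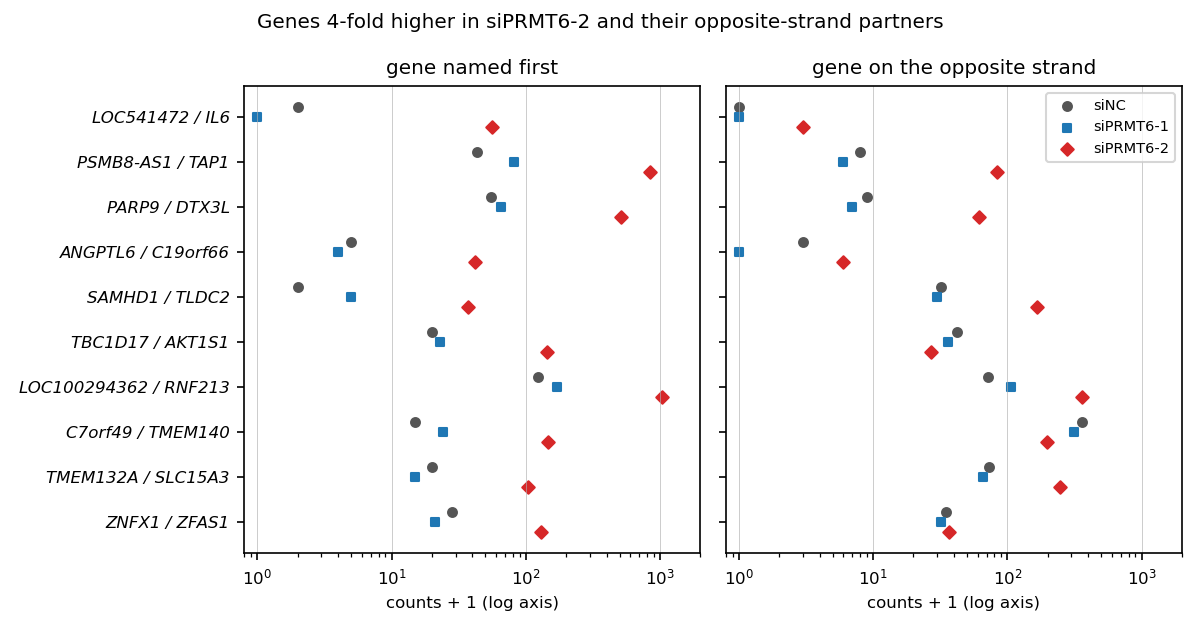
Counts plus 1 (log axis) in each library for 10 pairs of genes that share exon bases on opposite strands, with the gene named first at left and its partner at right. siPRMT6-2 is the highest library for every first gene, and among the partners it is lowest for AKT1S1 and TMEM140.

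Few genes were far below both other libraries. CLDN2 (chromosome X, 106900164 to 106930861, plus strand), a pore-forming claudin of leaky epithelia, had 36, 26 and 0 counts, at least 10.3-fold lower than siNC against the floor, and in the edgeR test its adjusted p was 8.00e-07. LHFPL3 had 59, 40 and 4 counts, 0.0788 times siNC (0.0208 to 0.213) and 0.111 times siPRMT6-1 (0.0289 to 0.307). PIGF, an enzyme of GPI-anchor synthesis, had 83, 86 and 12. siPRMT6-2 lay under both other libraries in each. PIGF lies opposite RHOQ, which had 92, 60 and 60 counts, and CLDN2 lies opposite RIPPLY1, with 0 in every library. CLDN1, another claudin, had 29, 24 and 25 counts and was not called, and CLDN2 was the 1 edgeR call among 9 measured genes of the claudin and epithelial list.

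Among the 44 genes called lower, 28 were at least 2-fold under both other libraries and 23 had an opposite-strand partner. Such a partner was present for 30 of the 161 genes called higher and for 26.5% of the genes measured. The share was thus greatest among the lower calls, whose counts may stand for the other strand. SLC7A5, the large neutral amino acid transporter LAT1, had 204, 283 and 63 counts. STAB1, a scavenger receptor, had 77, 100 and 18, opposite NT5DC2 with 33, 60 and 8. THRIL, a long non-coding RNA that shares exon bases with BRI3BP on the opposite strand, had 480, 635 and 174. RABL6, a GTPase-like protein, had 233, 219 and 73. siPRMT6-2 was the lowest library in all 5 of these genes given with counts. TNFRSF10D, a decoy receptor for TRAIL, had 16, 70 and 8 counts, where siPRMT6-1 was the library that stood off most, while its ligand gene TNFSF10, called higher, had 4, 1 and 26. SNORA57, a small nucleolar RNA, had 70, 85 and 24 and was the 1 call among 56 measured. Without opposite-strand genes edgeR called 21 lower. SLC7A5, STAB1, NT5DC2, THRIL and RABL6 were chosen after their values were seen.

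**Figure D4:**
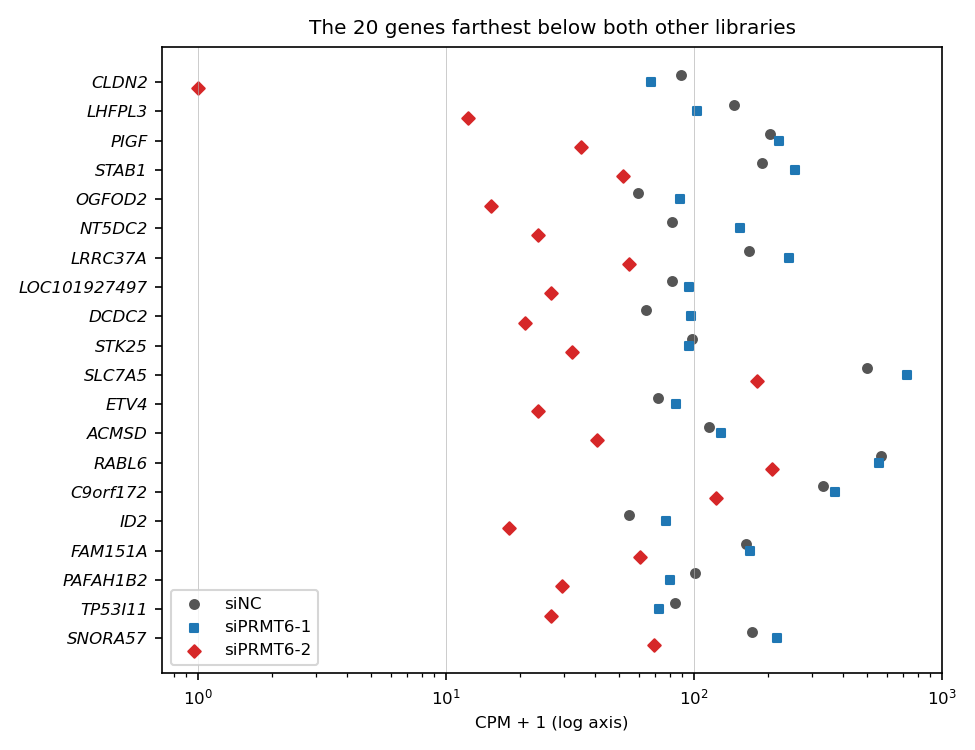
CPM plus 1 (log axis) in each library for the 20 genes with at least 30 counts in the highest library that lie farthest below both others. siPRMT6-2 is the lowest library for all 20, as the choice requires. With the prior count of 2, only CLDN2, LHFPL3 and PIGF pass a 4-fold difference against both. OGFOD2, at 58.5, 86.7 and 14.2 CPM, passes it only without the prior count.

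Growth and housekeeping lists gave no calls in the edgeR test. DNA replication had 0 calls among 22 measured, mitosis 0 of 17, cholesterol synthesis 0 of 11, p53 targets 0 of 13, stress response 0 of 17 and ribosomal proteins 0 of 73. Over all 8227 genes 1.96% were called higher and 0.535% lower. At these shares, 0 calls in lists of such sizes does not show that they were unchanged. The ribosomal protein sum was 0.892 times siNC (0.860 to 0.925) and 1.03 times siPRMT6-1 (0.991 to 1.07). Replication summed to 1.04 times siNC (0.936 to 1.16) and mitosis to 0.943 times (0.837 to 1.06). CDKN1A, the p21 inhibitor and a p53 target, had 8, 5 and 12 counts, and MCM7, a replicative helicase subunit, had 125, 108 and 140, neither called.

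Some lists beyond interferon gave calls, beside 1.96% of all genes measured that were called higher. The immediate early list had 4 calls of 18 measured, with JUNB at 16, 21 and 47 counts beside KLF4 and ZFP36. Histones had 7 of 53, with HIST2H2BE at 30, 30 and 95, HIST3H2A at 4, 3 and 23 and HIST3H2BB at 1, 1 and 15, and the list sum was 1.19 times siNC (1.12 to 1.26). HIST3H2A and HIST3H2BB had under 10 counts over the other libraries and were measured through siPRMT6-2. Of the 49 histone genes with at least 10 counts there, 5 were called. Histone genes are near-identical and can share reads. MT2A, a metal-binding protein, had 121, 124 and 316 counts and was the 1 call among 3 measured genes of the metallothionein list. That list also holds SLC30A1, a zinc transporter and not a metallothionein, with 28, 29 and 53 counts. In the endometrial and hormone list 2 of 6 were called, IGFBP6 with 2, 1 and 28 counts and IGFBP1, a decidual marker, with 3, 9 and 29. IGFBP6 was also measured through siPRMT6-2, and 1 of the 5 members with at least 10 counts over the other libraries was called. In the matrix list FN1, fibronectin, had 38, 48 and 82 and TGFBI had 27, 12 and 55, the 2 calls of 17.

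**Figure D5:**
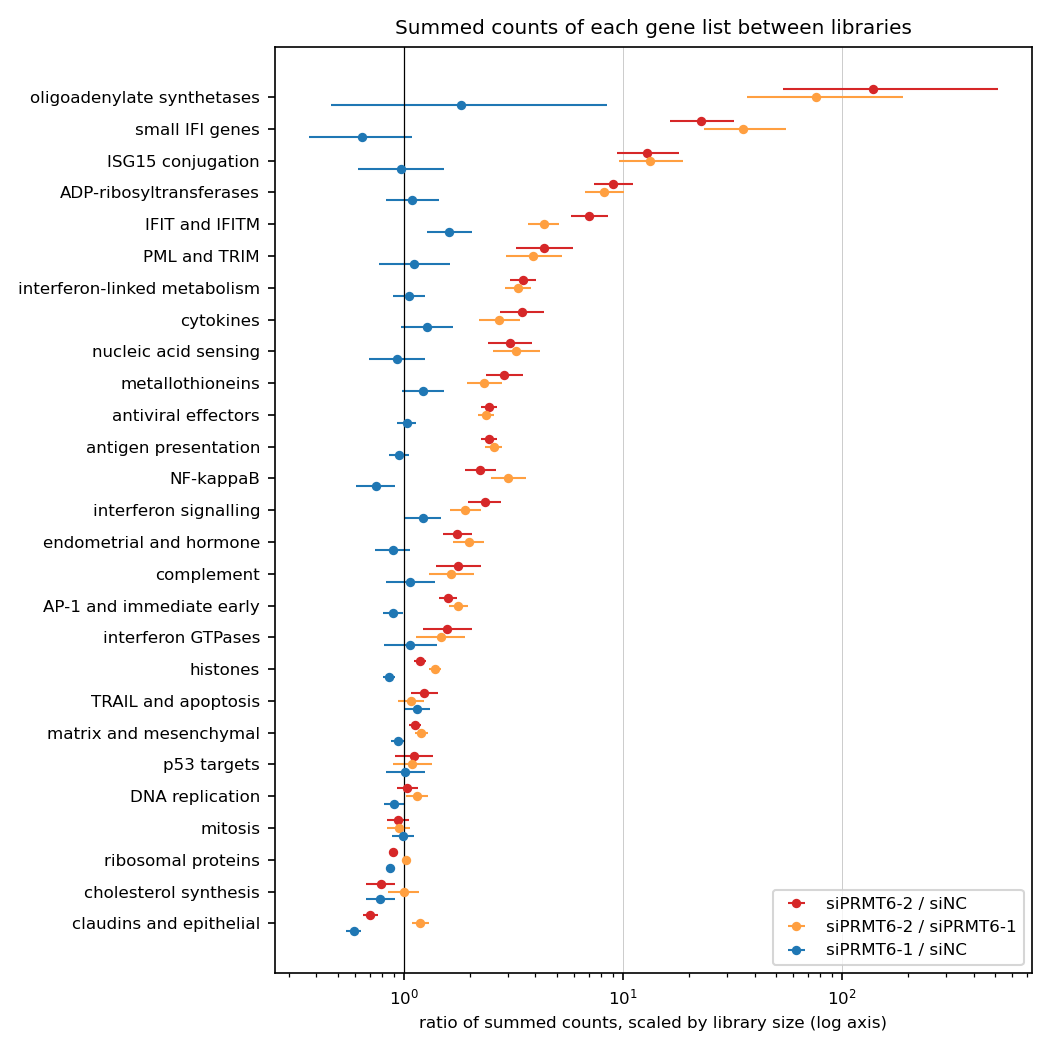
Ratio of summed counts between libraries, scaled by TMM library size (log axis), for 27 gene lists, with exact binomial 95% intervals that cover counting error only. The oligoadenylate list reads 139.7 against siNC and 76.3 against siPRMT6-1, the growth lists lie near 1, and the ratio of siPRMT6-1 to siNC (blue) is within 2-fold for all lists shown.

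Values near the fold limit show how sharp it is. Just inside on the higher side, TFPI2 had log2 differences of 2.19 and 2.14 from siNC and siPRMT6-1, and IFI35 had 2.76 and 2.14. Just outside were H1F0 with 1.98 and 2.40, PARP10 with 1.96 and 2.81, SLC15A3 with 1.95 and 2.03, LGALS3BP with 1.95 and 2.00, and RNF213 with 2.53 and 1.92. On the lower side PIGF had -2.41 and -2.52 inside, and STAB1 had -1.78 and -2.21 outside.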

How the data were processed

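Gene counts of 3 libraries were deposited by the authors as whole numbers per gene, with no normalization, in a single table. The submitters' processing notes name STAR 2.7.8a, featureCounts 2.0.10 and the build hg38. The counting command, per the file headers, was of featureCounts 2.0.1 and grouped UCSC hg38 exons by gene name, counted pairs with strand setting 1 and gave a read in overlapping genes to each of these, so opposite-strand and overlapping genes are uncertain. The names of the aligned files hold the words umi and dedup. Per the labels' protocols, libraries came from a stranded low-input total RNA kit. Columns were matched to samples by their descriptions, where siPRMT6-1 is called si2 and siPRMT6-2 si3. The other per-sample columns numbered 0.

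Genes with at least 15 counts summed were kept. The test was edgeR 4.0.16 (quasi-likelihood, edgeR 4 dispersion, TMM, two-sided, Benjamini-Hochberg over 8227 genes) in R 4.3.3, with siPRMT6-2 on 1 side and 1 residual degree of freedom. A separate common dispersion estimate, not used in this test, gave a coefficient of variation of 17.1%. It rests on siNC and siPRMT6-1, which are not replicates, so it does not measure biological variation alone. Log2 CPM differences used TMM library sizes and a prior count of 2. Intervals were exact binomial or Poisson (scipy 1.17.1). DESeq2 1.42.0, other scalings, filters, folds and prior counts were tried, and each comparison library was left out. Named genes were PRMT6, up to 25 higher and 15 lower genes (3 existed) with the largest smaller-of-both differences among those 4-fold apart, and up to 4 measured members per list. Every other gene, including the cell type markers, opposite-strand partners and genes nearest a limit, was chosen after its values were seen. The members, lists and rules were chosen with earlier results of these data known. Some genes are not reported here. Promoters came from RefSeq (GRCh38.p14), matched by symbol or synonym.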

Additional observations from a re-analysis of the deposited data

Results flagged for a closer look

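ICAM1 and NFKBIA drew attention because siPRMT6-1 and siPRMT6-2 lay on opposite sides of siNC. For ICAM1 the log2 CPM difference from siNC was -1.02 in siPRMT6-1 and 1.60 in siPRMT6-2, a gap of -2.61, from 17, 7 and 48 counts in siNC, siPRMT6-1 and siPRMT6-2. For NFKBIA it was -1.52 and 1.47, a gap of -2.99, from 10, 2 and 27 counts. The difference between the siRNAs was not tested, since each had 1 library.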

How the results depend on the processing

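The higher and lower calls of edgeR (161 and 44) became 48 and 3 with DESeq2, 0 and 0 with at least 1 count summed and 82 and 16 with at least 50. With at least 10 counts over siNC and siPRMT6-1, an alternative chosen after seeing the data, 106 were higher. Without opposite-strand genes 21 were lower. Higher calls ran from 127 to 168 and lower from 31 to 48 with the older dispersion estimate, the likelihood ratio test, RLE factors, total counts and filterByExpr. The genes 4-fold apart (52 higher, 3 lower) became 122 and 46 at a fold of 2 and 26 and 1 at a fold of 8. With at least 20 counts in the highest library 6 were lower, and with at least 50, 33 were higher. With intervals beyond 2-fold 6 were lower, and without opposite-strand genes 1. With at least 10 counts over the other libraries 29 were higher. Leaving out siNC or siPRMT6-1 gave 58 to 67 higher and 3 to 9 lower, the 9 without siNC. In other settings these counts stayed within 1.5 times. Of the median differences of 32 lists across settings, 60 moved and 196 stayed, and of the differences of 136 named genes 30 moved and 786 stayed, where the genes moved only with a prior count of 5 or a library left out. No named gene with a log2 difference of at least 2 in size, and no list with a median of at least 1 in size, reversed its direction. Smaller differences were not held to this, and some changed sign with the comparison library. PRMT6, for example, had a log2 difference of -1.40 from siNC and 0.70 from siPRMT6-1. The causes of these changes were not tested beyond the fewer genes or stricter limits. Leaving a library out of the edgeR test leaves no residual degrees of freedom, so it gave no test. No paired analysis was possible because each group has 1 library. Depth limits the comparison: 3 counts equal 7.32 to 8.50 CPM.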
